A study of Homo sapiens with 18 samples.

Results

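The 44 genes described here encode the machinery that copies DNA in human cells, and their RNA was measured in the ovarian cancer line OVCAR5 after culture with stearate, oleate or neither. They were chosen by symbol as a fixed list of factors for origin licensing, the replicative helicase, the polymerases and their clamp, and nucleotide reduction. Each symbol matched 1 row among the 60483 gene identifiers of the expression table. All 44 genes had a mean of at least 1 TPM, the level of a transcript scaled so that all transcripts of a library sum to the same total, the limit below which a gene would have been dropped, so all 44 were among the 13789 genes tested.

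OVCAR5 is an established line whose label gives it as wild type and as a high-grade ovarian serous adenocarcinoma. For 24 h all cells were kept in medium with albumin free of fatty acids, and 6 conditions of 3 libraries each were set up in it: DMSO (the vehicle), 1 µM CAY10566, 50 µM stearate with DMSO (stearate+DMSO), 50 µM stearate with 1 µM CAY10566 (stearate+CAY10566), 50 µM oleate with DMSO (oleate+DMSO) and 50 µM oleate with 1 µM CAY10566 (oleate+CAY10566). Oleate has the chain length of stearate but carries a double bond where stearate is fully saturated, and CAY10566 inhibits SCD1, the desaturase that makes oleate from stearate. The 6 libraries without fatty acid are called controls below and are compared with the 6 libraries with stearate and the 6 with oleate, each group holding 3 libraries with CAY10566 and 3 without.

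Before a cell divides, the origin recognition complex (ORC) marks replication origins, and CDC6 and CDT1 load the ring of MCM2 to MCM7 around the DNA. In S phase CDC45 and the GINS complex join this ring to form the active helicase, polymerase alpha-primase lays down primers, and the clamp PCNA, placed by replication factor C, holds polymerases delta and epsilon on the template. Many of these genes are known targets of the E2F transcription factors, which drive entry into S phase, so their RNA is often read as a sign of how many cells are in or near S phase.

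RefSeq promoter windows, from 250 bases before to 50 bases after the transcription start in GRCh38.p14, were found for 38 of the 44 genes, in 47 windows. An E2F site was searched as TTTCCCGC, TTTCGCGC, TTTGCCGC or TTTGGCGC on both strands, and 18 windows (38.3%), of 18 genes, held a match. Among all 35116 windows of this length the share was 3.31%, and it was 4.96% among the 14631 windows of tested genes. The CCAAT box, searched as CCAAT, was in 29 of the 47 windows (61.7%) against 34.6% of all windows and 34.7% of those of tested genes. The CHR element, searched as TTTGAA or TTCGAA, was in 2 windows (4.26%), those of MCM6 and RRM1. Its shares were 16.4% of all windows and 11.6% of those of tested genes. These are matches of letters, not sites shown to be bound.

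The following stretches are shown because they hold E2F matches at the starts of genes on which the results turn. Each runs 5′ to 3′ on the gene's own strand, from 120 bases before the start to 20 bases from it on, with the E2F letters in capitals (in MCM2 and MCM6 the capitals are a pair of overlapping matches, 1 on each strand). They lie at chr20:5126603-5126742 on the minus strand (PCNA), chr17:40287759-40287898 on the plus strand (CDC6), chr3:127598291-127598430 on the plus strand (MCM2), chr2:135876424-135876563 on the minus strand (MCM6), chr7:100101378-100101517 on the minus strand (MCM7) and chr16:88803669-88803808 on the plus strand (CDT1).
PCNA: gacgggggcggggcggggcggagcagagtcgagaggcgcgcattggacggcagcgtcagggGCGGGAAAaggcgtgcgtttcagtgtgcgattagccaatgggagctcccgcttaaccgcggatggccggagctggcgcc
CDC6: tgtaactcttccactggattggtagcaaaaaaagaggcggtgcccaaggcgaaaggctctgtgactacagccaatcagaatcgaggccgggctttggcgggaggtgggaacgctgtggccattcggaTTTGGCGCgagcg
MCM2: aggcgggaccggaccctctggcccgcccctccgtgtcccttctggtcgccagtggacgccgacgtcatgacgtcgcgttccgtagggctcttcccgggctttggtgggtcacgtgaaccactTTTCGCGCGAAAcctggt
MCM6: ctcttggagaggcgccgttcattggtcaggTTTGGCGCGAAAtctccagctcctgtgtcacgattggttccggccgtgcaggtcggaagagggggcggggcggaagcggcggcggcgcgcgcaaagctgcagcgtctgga
MCM7: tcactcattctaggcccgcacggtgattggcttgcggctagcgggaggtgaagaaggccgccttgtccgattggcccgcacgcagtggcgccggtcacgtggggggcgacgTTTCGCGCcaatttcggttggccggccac
CDT1: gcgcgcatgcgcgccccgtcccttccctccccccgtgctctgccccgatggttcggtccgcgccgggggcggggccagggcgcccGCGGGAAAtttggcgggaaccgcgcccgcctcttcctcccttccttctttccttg

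In the stretches shown, the first base of the match lay 59 bases upstream of the start in PCNA, 35 upstream in CDT1 and 90 upstream in MCM6, 9 upstream in MCM7, and just downstream of the start in CDC6 (8 bases) and MCM2 (3 bases). The 18 genes with a match and the 20 with a window but no match had close median responses, which were not tested against each other. With stearate the median log2 difference from control was 0.15 with a match (8 of 18 passed the test described below) and 0.12 without (10 of 20 passed), and with oleate it was 0.15 (10 of 18) and 0.14 (8 of 20). Over all genes tested 13.5% were called higher and 5.97% lower with stearate, and 23% and 2.7% with oleate.

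Summed over the 44 genes, the level was 1789 ± 36.8 TPM in the controls (SD, n = 6), 1951 ± 69.2 with stearate and 1944 ± 56.5 with oleate, or 0.179%, 0.195% and 0.194% of all TPM. The controls ran from 1728 to 1832 TPM, the stearate libraries from 1868 to 2063 and the oleate libraries from 1881 to 2012. On the TPM scale neither fatty acid group thus overlapped the controls, and the sums were not computed after the rescaling described further below. By mean level the genes ranged from 3.66 TPM for POLA1, the catalytic subunit of polymerase alpha, to 215.6 TPM for POLD2, an accessory subunit of polymerase delta, with a median of 29.3 TPM against 14.4 TPM over all genes tested. Their coefficient of variation within a condition had a median of 6.59%, from 2.95% for RPA2 upward to 19.9%, against 9.52% over all genes tested. In cultures measured as a whole, more cells in S phase and more of these RNAs per cell cannot be told apart. TPM is also relative to all other transcripts of a library, and the part of this in the sums was not tested.

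The libraries themselves differed a little. As the values are TPM, sequencing depth is unknown. Mitochondrial genes held 4.30% to 7.31% of TPM. Genes for ribosomal proteins held 22.4% to 23.7% in the controls (CAY10566 replicate 3 was at 22.4% and the other 5 at 23.3% or more), 22.5% to 23.2% with stearate and 21.9% to 22.8% with oleate, and the part of this in the results was not tested. CAY10566 replicate 3 had the highest value of the 6 controls for 20 of the 44 genes and for 40.1% of all genes tested, and DMSO replicate 3 had the lowest for 19 of the 44 and for 14.6% of all. Of 12 markers of ovarian serous carcinoma 8 reached a mean of 1 TPM, among them PAX8 (11.8 TPM) and EPCAM (331 TPM), while WT1 (0.126 TPM), SOX17 (0.0411), MUC16 (0.632) and ESR1 (0.471) did not. The others reaching it were MECOM (1.61 TPM), CDH1 (49.75 TPM) and the keratins KRT7, KRT8, KRT18 and KRT19 (362 to 895 TPM). EPCAM and the keratins made up most of the summed level. The list summed to 3005 to 3146 TPM in the controls, 2422 to 2615 with stearate and 2744 to 3060 with oleate, and its part in the results below was not tested. Of 6 leukocyte markers CD68, a lysosomal protein, was at 94.5 TPM and the other 5 stayed under 1 TPM, with PTPRC at 0.00556 TPM. That list summed to 83.4 to 111 TPM in the controls, 82.4 to 90.5 with stearate and 96.8 to 113 with oleate. Of 6 markers of gastrointestinal epithelium CDX2 (3.76 TPM) and KRT20 (1.69 TPM) reached 1 TPM, of 6 fibroblast markers COL1A1 did (5.04 TPM), and of 4 endothelial markers 0 did. These 3 lists each summed to at most 7.52 TPM in any library, and the part of the marker lists in the results was not tested.

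**Figure D1:**
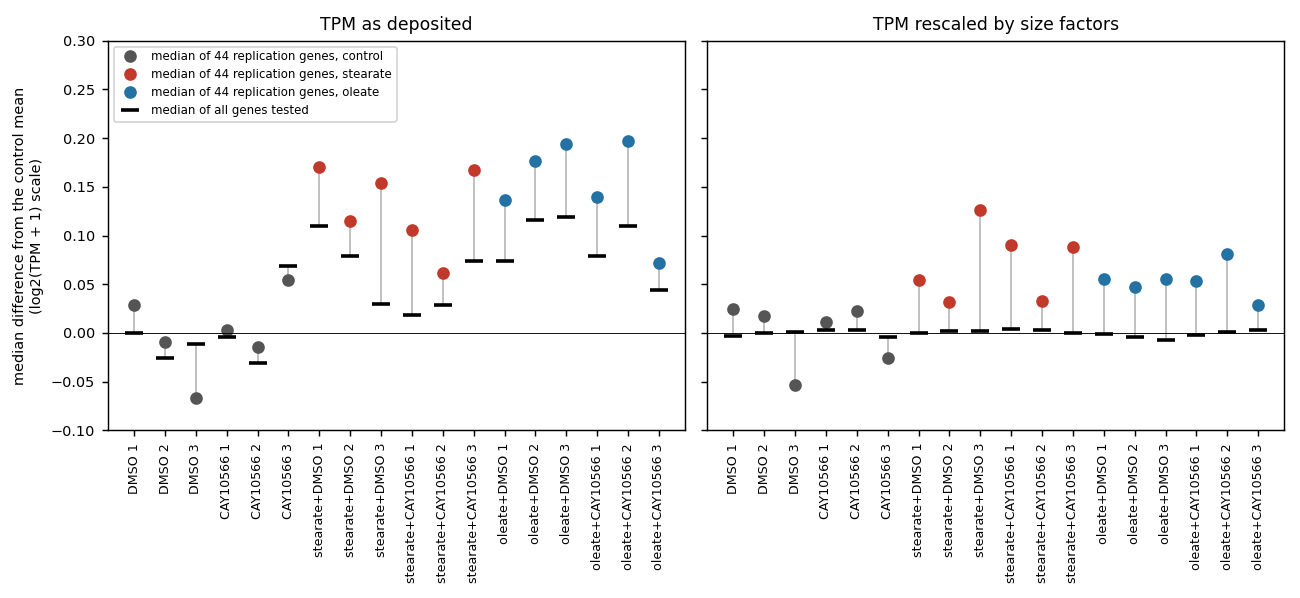
Median over the 44 replication genes (points) and over all genes tested (dashes) of the difference from the control mean, on the log2(TPM + 1) scale, in each of the 18 libraries, for TPM as deposited (left) and after rescaling by size factors (right). As deposited, the 12 libraries with a fatty acid have points between 0.06 and 0.20 and dashes above 0; after rescaling the dashes lie near 0 and the points of these 12 libraries between 0.03 and 0.13, while DMSO replicate 3 lies lowest of the controls at -0.05.

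With stearate 20 of the 44 genes rose and 0 fell against control, at a false discovery rate (FDR) under 0.05 in limma fitted on log2(TPM + 1) over all genes tested. Over all genes tested 13.5% were called higher and 5.97% lower in this comparison. The largest rises were those of CLSPN (1.45-fold), CDC6 (1.33-fold), and RRM2 and POLA1 (1.29-fold each). Past the fold limit of the study, 0.32 on the log2 scale, lay 4 of the 20 rises and 0 falls, against 3.46% and 1.89% of all genes. The median difference was 0.13 on the log2 scale against 0.06 for all genes, and it was above 0 for 35 of the 44 genes.

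With oleate 20 of the 44 genes rose and CDT1 fell against the same 6 controls, where 23% of all genes were called higher and 2.7% lower. GINS4 (1.45-fold), CLSPN (1.36-fold) and MCM4 (1.35-fold) rose most, and these 3 were the only ones past the fold limit, with 0 falls past it, against 6.46% and 0.435% of all genes. The median difference was 0.15 against 0.09 for all genes, and it was above 0 for 42 of the 44. At FDR under 0.05 alone, the share of replication genes called higher thus stood above the background for each fatty acid on this scale. Past the fold limit it was 4 of 44 with stearate, against 3.46% of all genes. With oleate it was 3 of 44, near the 6.46% of all genes. The part of the genes' higher level and lower variation in these shares was not tested. As both comparisons use the same controls, their values are given side by side and not as separate evidence.

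TPM divides each gene by the sum over all genes, and the median of all genes was itself above 0 with both fatty acids. When the libraries were rescaled by median-of-ratios size factors this median went from 0.06 to 0.0053 with stearate and from 0.09 to -0.0037 with oleate. On that scale 10 of the 44 genes were higher and 1 lower with stearate (background 7.76% and 10.3%), with a median of 0.07, and 8 were higher and 3 lower with oleate (8.89% and 9.43%), with a median of 0.05. With stearate the 10 were ORC1, CDC6, MCM3, GINS3, PCNA, POLA1, POLD3, FEN1, RRM2 and CLSPN, and with oleate the 8 were CDC6, MCM2, MCM3, MCM4, GINS4, POLD3, RPA1 and CLSPN. CDT1 kept its fall with oleate. The genes called on the TPM scale in a comparison and not listed for it here lost that call on rescaling, and which scale is the right one for these cells was not tested. None of the calls turned its direction, but differences that did not pass did so for 4 genes with stearate (ORC3, MCM7, POLE and POLE2) and for 10 with oleate (ORC3, ORC5, GINS2, RFC4, PRIM1, PRIM2, POLD2, POLE2, RPA2 and TIMELESS).

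The calls also changed in a fit with transcript length and GC content. That fit took out each library's mean level too, so the part of length and GC alone was not tested. With each library's trend on these removed, 11 of the 20 calls with stearate remained (ORC1, CDC6, MCM3, CDC45, GINS3, PCNA, POLA1, POLD3, FEN1, RRM2 and CLSPN) and 10 of the 21 with oleate (CDT1, MCM2, MCM3, MCM4, CDC45, GINS4, PCNA, RFC2, POLD3 and FEN1). None of the calls turned its direction there. Differences that did not pass did so for 4 genes with stearate (ORC3, CDT1, POLE and POLE2). With oleate they did so for 8 (ORC2, ORC4, ORC5, GINS1, GINS2, POLD2, POLE2 and TIMELESS). In all 11 genes were then higher and 2 lower with stearate, against 7.69% and 10.3% of all genes, and 9 higher and 1 lower with oleate, against 5.5% and 6.31%. With stearate ORC5 (log2 -0.16, limma adjusted p = 0.0147) and POLD2 (-0.10, limma adjusted p = 0.0212) newly passed as lower, and with oleate 0 genes newly passed. Among those lost with oleate were CDC6 (log2 0.16, limma adjusted p = 0.0595), CLSPN (0.23, limma adjusted p = 0.0552), POLA1 (0.11, limma adjusted p = 0.357) and RPA1 (0.11, limma adjusted p = 0.07).

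**Figure D2:**
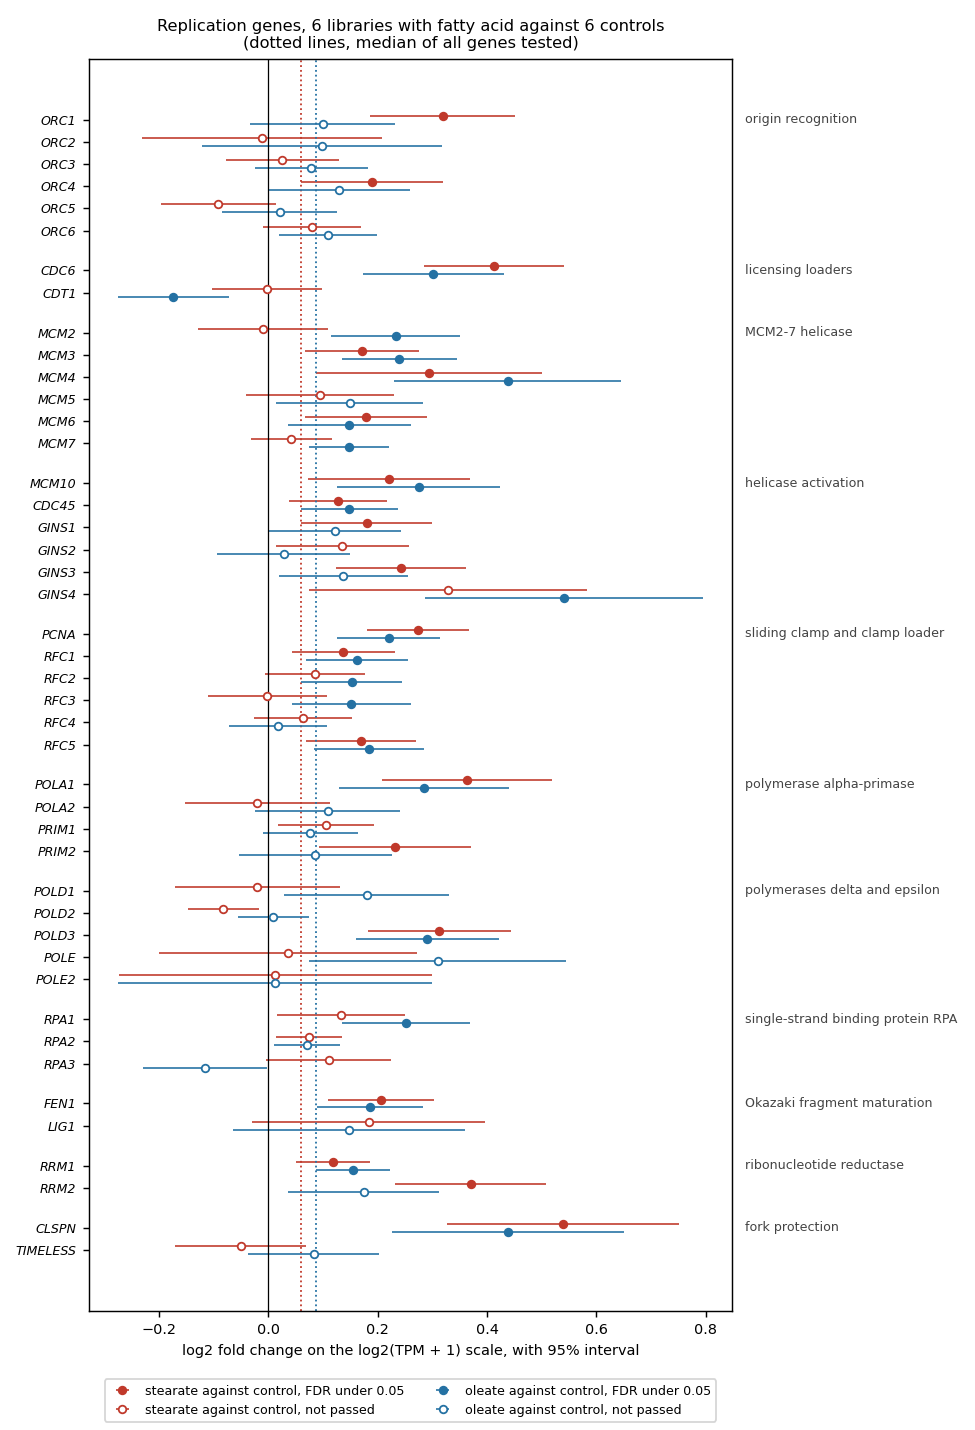
Log2 fold change of each of the 44 replication genes with stearate (red) and with oleate (blue) against the 6 controls, on the log2(TPM + 1) scale with the 95% interval, ordered by role; filled points passed FDR under 0.05 and dotted lines give the median of all genes tested. Filled points lie to the right of 0 for 20 genes with stearate and 20 with oleate, and CDT1 with oleate is the filled point to the left.

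The counts by role that follow are to be read against the 13.5% of all genes called higher with stearate and the 23% with oleate. Among the 6 subunits of the origin recognition complex, ORC1 and ORC4 rose with stearate and 0 of 6 passed with oleate. ORC1, the subunit whose amount is known to be tied to the cell cycle, ran from 5.22 to 6.27 TPM in the controls (median 5.78), from 7.21 to 7.55 with stearate (median 7.32) and from 5.21 to 7.20 with oleate (median 6.38). All 6 stearate libraries lay above all controls and above all oleate libraries. The rise with stearate was 0.32 ± 0.06 on the log2 scale (SE, limma adjusted p = 0.00189), and with oleate the log2 difference was 0.10 (limma adjusted p = 0.26). Stearate was above oleate by 0.22 on the log2 scale (95% interval 0.09 to 0.35, limma adjusted p = 0.0191). ORC4 was 1.14-fold higher with stearate (limma adjusted p = 0.0381), a call that held in 12 of the 18 fits that each left out 1 library. The other subunits, ORC2, ORC3, ORC5 and ORC6, differed from control by -0.09 to 0.11 on the log2 scale with either fatty acid and did not pass. Of these ORC5 passed as lower with stearate once the length and GC trend was removed (-0.16).

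With oleate CDC6 rose and CDT1 fell, the 2 loading factors. CDC6, the ATPase that loads the MCM ring, ran from 13.7 to 16.9 TPM in the controls (median 15.1), from 20 to 21.3 with stearate (median 20.7) and from 15.9 to 21.8 with oleate (median 19.2). The stearate libraries did not overlap the controls, and 5 of 6 oleate libraries lay above all controls. It rose 1.33-fold with stearate (log2 0.41 ± 0.06, limma adjusted p = 0.000145) and 1.23-fold with oleate (0.30 ± 0.06, limma adjusted p = 0.00326), the latter not with the length and GC trend removed (0.16). CDC6 rose with stearate in DMSO (1.33-fold, limma adjusted p = 0.0117) and in CAY10566 alike (1.33-fold, limma adjusted p = 0.0181). Between stearate and oleate the log2 difference was 0.11, with an interval from -0.02 to 0.24.

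CDT1, the partner of CDC6 that geminin and degradation hold back outside G1, ran from 57.2 to 69.2 TPM in the controls (median 64.8), from 60.7 to 68.4 with stearate (median 64.8) and from 51.2 to 60.9 with oleate (median 57.7). It fell with oleate (0.886-fold, log2 -0.17 ± 0.05, limma adjusted p = 0.0143), the only fall among the 44 genes with either fatty acid on the TPM scale. The oleate and control libraries overlapped, with 2 of 6 oleate libraries below all controls. With stearate the log2 difference from control was -0.002 (interval -0.10 to 0.10), and stearate was above oleate by 0.17 (limma adjusted p = 0.016).

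**Figure D3:**
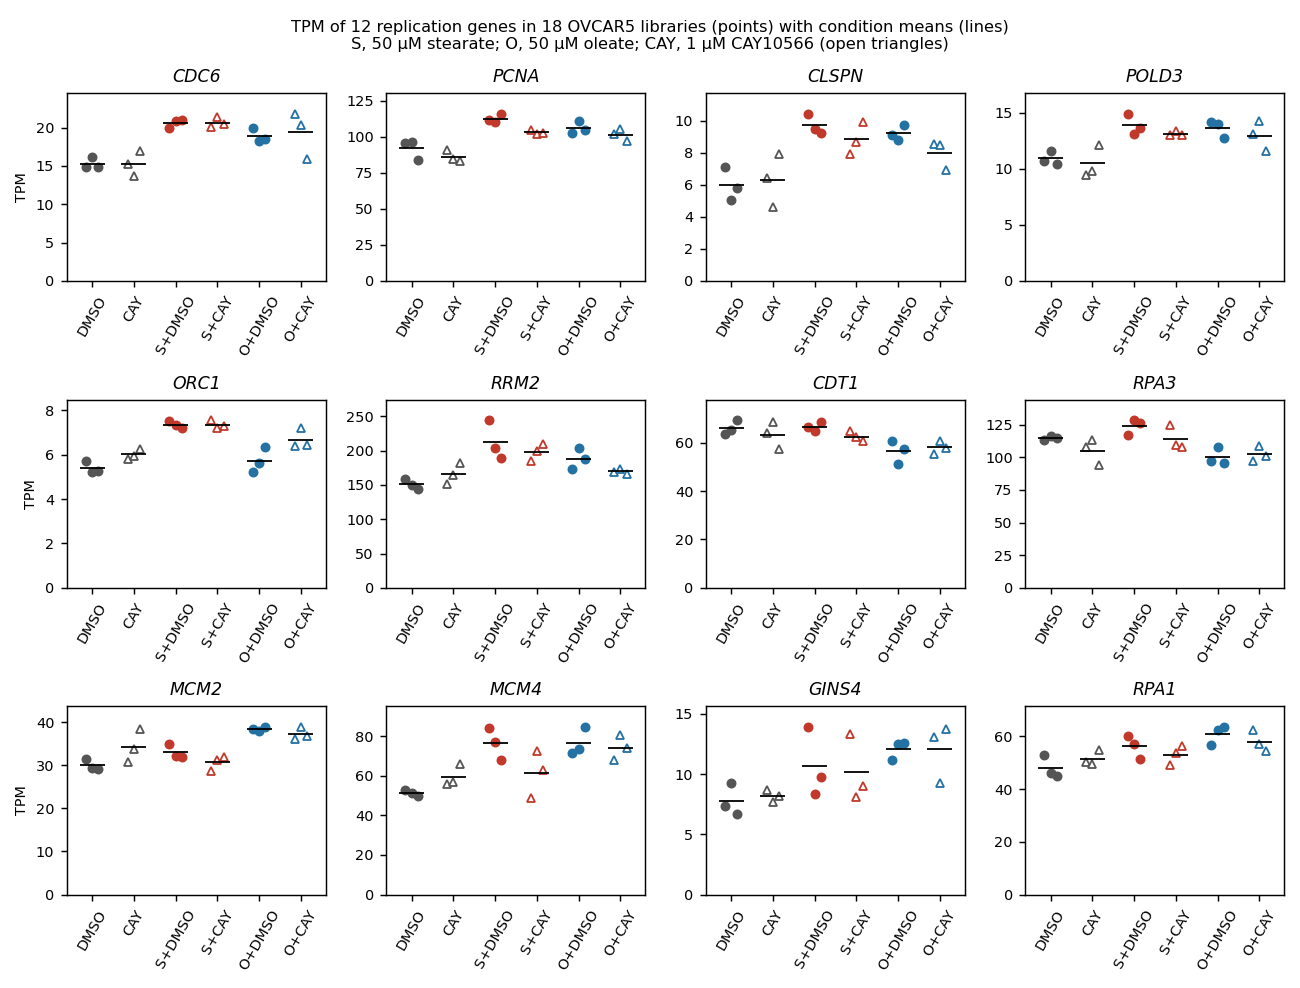
TPM of 12 replication genes in the 18 libraries, by condition (S, stearate; O, oleate; CAY, CAY10566; open triangles, with CAY10566), with the mean of each condition as a line. CDC6, PCNA, CLSPN and POLD3 lie higher with either fatty acid, ORC1 and RRM2 highest with stearate, CDT1 and RPA3 lowest with oleate, and MCM2 highest with oleate.

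Of the 6 genes of the MCM2 to MCM7 ring, 5 were called higher with oleate (MCM2, MCM3, MCM4, MCM6 and MCM7) and 3 with stearate (MCM3, MCM4 and MCM6), where 23% and 13.5% of all genes were. The difference between these counts was not tested, and on the rescaled values they were 3 with oleate and 1 with stearate. Between the fatty acids themselves MCM2 and MCM7 differed, MCM7 not on the rescaled values. MCM2 ran from 29.2 to 38.4 TPM in the controls (median 31.1), from 28.8 to 34.9 with stearate (median 32.0) and from 36.2 to 38.8 with oleate (median 38.2). The oleate libraries overlapped the controls only through CAY10566 replicate 3, at 38.4 TPM, and lay above all 6 stearate libraries. It rose 1.18-fold with oleate (log2 0.23 ± 0.06, limma adjusted p = 0.00741), and the log2 difference with stearate was -0.01 (interval -0.13 to 0.11). Stearate was below oleate by 0.24 on the log2 scale (interval -0.36 to -0.12, limma adjusted p = 0.0048). MCM7 ran from 67.1 to 77.3 TPM in the controls (median 69.7), from 70.3 to 78.3 with stearate (median 71.7) and from 74.5 to 80.5 with oleate (median 79.3). It rose 1.11-fold with oleate (log2 0.15 ± 0.04, limma adjusted p = 0.00676), against a log2 difference of 0.04 with stearate (limma adjusted p = 0.426). Stearate was below oleate by 0.11 (interval -0.18 to -0.03, limma adjusted p = 0.0389), a call that held in 10 of the 18 fits without 1 library.

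MCM4 had the widest spread of the ring. It ran from 49.8 to 66.1 TPM in the controls (median 54.3), from 48.9 to 84.1 with stearate (median 70.2) and from 68.1 to 84.5 with oleate (median 73.6). All 6 oleate libraries were above all controls, and the rise was 1.35-fold (log2 0.44 ± 0.10, limma adjusted p = 0.00505). With stearate it was 1.23-fold (0.29 ± 0.10, limma adjusted p = 0.044), which held in 6 of the 18 fits without 1 library. The stearate libraries were at 84.1, 77.2 and 68.0 TPM in DMSO and at 48.9, 72.4 and 62.8 TPM in CAY10566, against 53.0, 51.3 and 49.8 in DMSO alone and 55.6, 57.1 and 66.1 in CAY10566 alone. In DMSO the stearate libraries thus lay clear of their controls (1.47-fold, limma adjusted p = 0.00694), and in CAY10566 they overlapped them.

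MCM3 ran from 24.6 to 29.0 TPM in the controls (median 25.9), from 27.2 to 31.2 with stearate (median 30.4) and from 27.6 to 33.4 with oleate (median 31.6). It rose 1.18-fold with oleate (log2 0.24 ± 0.05, limma adjusted p = 0.00356) and 1.13-fold with stearate (0.17 ± 0.05, limma adjusted p = 0.0219), the latter not without DMSO replicate 3 (0.15, limma adjusted p = 0.0539) or without stearate+DMSO replicate 1 (0.16). MCM6 ran from 24.3 to 28.8 TPM in the controls (median 26.9), from 28.1 to 33.2 with stearate (median 30.2) and from 26.8 to 32.3 with oleate (median 29.5). Its rises were 1.13-fold with stearate (limma adjusted p = 0.0255) and 1.11-fold with oleate (limma adjusted p = 0.0492), and the groups overlapped in each case. The call with oleate held in 6 and that with stearate in 14 of the 18 fits without 1 library. MCM5 did not pass in any comparison. It ran from 51.9 to 70.2 TPM in the controls (median 54.4), from 55.8 to 65.2 with stearate (median 61.8) and from 57.9 to 68.0 with oleate (median 64.0), and the highest control was CAY10566 replicate 3.

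Of the 6 genes that turn the loaded ring into a helicase, MCM10, CDC45, GINS1 and GINS3 rose with stearate and MCM10, CDC45 and GINS4 with oleate. On the rescaled values 1 of the 6 was called higher with each, GINS3 with stearate and GINS4 with oleate, against 7.76% and 8.89% of all genes. GINS4, a subunit of the GINS complex, ran from 6.65 to 9.25 TPM in the controls (median 7.94), from 8.11 to 13.9 with stearate (median 9.41) and from 9.28 to 13.7 with oleate (median 12.5). With oleate all libraries lay above all controls, if narrowly, and the rise was 1.45-fold (log2 0.54 ± 0.12, limma adjusted p = 0.00492). With stearate the libraries fell into 13.9, 8.39 and 9.77 TPM in DMSO and 13.4, 8.11 and 9.05 TPM in CAY10566, the log2 difference was 0.33 (interval 0.07 to 0.58) and the test did not pass (limma adjusted p = 0.064). GINS3 rose 1.18-fold with stearate (limma adjusted p = 0.00581), with the stearate libraries from 11.2 to 13.2 TPM above the controls at 9.26 to 10.3. MCM10, which is needed to activate the helicase, rose 1.16-fold with stearate (limma adjusted p = 0.0358) and 1.21-fold with oleate (limma adjusted p = 0.0101), and neither group overlapped the controls. CDC45 rose 1.09-fold with stearate (limma adjusted p = 0.0421) and 1.11-fold with oleate (limma adjusted p = 0.0173). GINS1 rose 1.13-fold with stearate (limma adjusted p = 0.0346). The stearate calls of MCM10, CDC45 and GINS1 held in 12, 8 and 10 of the 18 fits without 1 library.

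PCNA, the sliding clamp, had the smallest adjusted p of its group. It ran from 83.0 to 96.4 TPM in the controls (median 87.6), from 102 to 116.0 with stearate (median 107) and from 97.1 to 111 with oleate (median 104). Neither fatty acid group overlapped the controls, although the oleate group came close to them. PCNA rose 1.21-fold with stearate (log2 0.27 ± 0.04, limma adjusted p = 0.000348) and 1.16-fold with oleate (0.22 ± 0.04, limma adjusted p = 0.00326). Within the DMSO libraries the rises were 1.22-fold with stearate (limma adjusted p = 0.00334) and 1.15-fold with oleate (limma adjusted p = 0.0134), and within the CAY10566 libraries 1.20-fold with stearate (limma adjusted p = 0.00996), while 1.18-fold with oleate did not pass there (limma adjusted p = 0.101). Stearate and oleate differed by 0.05 on the log2 scale, with an interval from -0.04 to 0.15.

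Replication factor C, which opens the PCNA ring and closes it on DNA, has 5 subunits here. RFC1 and RFC5 rose with stearate (1.10-fold and 1.12-fold, limma adjusted p = 0.0385 and 0.0189), the call of RFC1 in 8 of the 18 fits without 1 library, and RFC1, RFC2, RFC3 and RFC5 with oleate (1.11-fold to 1.14-fold). RFC3 ran from 18.6 to 21.2 TPM in the controls (median 20.6), from 18.0 to 23.1 with stearate (median 20.3) and from 21.5 to 23.5 with oleate (median 23.1). The oleate libraries lay above all controls (log2 0.15 ± 0.05, limma adjusted p = 0.0391) and the stearate libraries spread around them (log2 -0.002, interval -0.11 to 0.11). Stearate was below oleate by 0.15 (interval -0.26 to -0.04, limma adjusted p = 0.0419). The oleate call of RFC3 held in 10 and the difference from stearate in 9 of the 18 fits without 1 library. RFC4, the most abundant subunit, at a mean of 117 TPM, differed from control by 0.06 with stearate and 0.02 with oleate on the log2 scale.

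POLA1 ran from 2.45 to 3.60 TPM in the controls (median 2.95), from 3.80 to 4.37 with stearate (median 4.16) and from 3.41 to 4.19 with oleate (median 3.94). The stearate libraries lay above all controls and 4 of 6 oleate libraries did. It rose 1.29-fold with stearate (log2 0.36 ± 0.07, limma adjusted p = 0.00227) and 1.22-fold with oleate (0.29 ± 0.07, limma adjusted p = 0.0104), fold changes that are understated on this scale for a gene at so low a level. The call with oleate was lost with the length and GC trend removed (0.11). The other subunit genes, POLA2 and PRIM1, did not pass with either fatty acid. PRIM2, the large primase subunit, rose 1.17-fold with stearate (limma adjusted p = 0.0203), but the genome holds near-identical copies of it and its value is uncertain.

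POLD3, an accessory subunit of polymerase delta, was the only 1 of the 5 listed genes of polymerases delta and epsilon to be called higher. It ran from 9.43 to 12.2 TPM in the controls (median 10.6), from 13.0 to 14.9 with stearate (median 13.2) and from 11.6 to 14.2 with oleate (median 13.5). The rises were 1.24-fold with stearate (log2 0.31 ± 0.06, limma adjusted p = 0.00197) and 1.22-fold with oleate (0.29 ± 0.06, limma adjusted p = 0.00409). POLD2 in contrast ran from 213 to 226 TPM in the controls (median 220.7), from 197 to 213 with stearate (median 209) and from 205 to 232 with oleate (median 224). Its stearate libraries all lay below all controls, the only gene of the 44 with that order, by a log2 difference of -0.08 (interval -0.15 to -0.02) that did not pass across all genes (limma adjusted p = 0.0662). Stearate was below oleate by 0.09 (interval -0.16 to -0.03, limma adjusted p = 0.0405), a call that held in 11 of the 18 fits without 1 library and was lost with the length and GC trend removed (-0.02, limma adjusted p = 0.732). After rescaling by size factors POLD2 passed as lower with either fatty acid (log2 -0.14 with stearate and -0.09 with oleate). The catalytic subunits POLD1 and POLE differed from control by -0.02 and 0.04 with stearate and by 0.18 and 0.31 with oleate, and did not pass (limma adjusted p from 0.05 to 0.874). POLE with oleate missed the limit narrowly (limma adjusted p = 0.05004). POLE2 varied most among the controls, from 7.56 to 17.5 TPM.

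Replication protein A (RPA), which coats single-stranded DNA at the fork, is a complex of RPA1, RPA2 and RPA3, of which RPA1 passed against control, with oleate. RPA1 ran from 45.0 to 54.8 TPM in the controls (median 49.9), from 49.0 to 60.1 with stearate (median 55.1) and from 54.6 to 63.5 with oleate (median 59.8). It rose 1.19-fold with oleate (log2 0.25 ± 0.06, limma adjusted p = 0.00461), with 5 of 6 oleate libraries above all controls, a call that was lost with the length and GC trend removed (0.11). The difference with stearate was 0.13 (limma adjusted p = 0.0994). RPA3, the smallest subunit, ran from 94.5 to 117 TPM in the controls (median 113), from 108 to 128 with stearate (median 121) and from 95.6 to 108 with oleate (median 99.4). Neither fatty acid passed against control (log2 0.11 with stearate, limma adjusted p = 0.161, and -0.12 with oleate, limma adjusted p = 0.125), but stearate was above oleate by 0.23 (interval 0.11 to 0.34, limma adjusted p = 0.00608). On the rescaled values RPA3 was lower with oleate than in the controls (log2 -0.22, FDR under 0.05). RPA2 differed from control by 0.07 with each fatty acid.

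FEN1, the nuclease that trims Okazaki fragments, ran from 34.6 to 38.0 TPM in the controls (median 36.0), from 39.0 to 44.3 with stearate (median 42.4) and from 36.7 to 44.4 with oleate (median 42.2). It rose 1.15-fold with stearate, whose libraries lay above all controls (log2 0.21 ± 0.05, limma adjusted p = 0.0044), and 1.14-fold with oleate (0.19 ± 0.05, limma adjusted p = 0.00839). LIG1, the ligase that joins the fragments, did not pass (log2 0.18 with stearate and 0.15 with oleate).

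RRM1 and RRM2 encode the large and the small subunit of ribonucleotide reductase, which makes deoxyribonucleotides. RRM2, the subunit that is limiting and peaks in S phase, was at 159, 149 and 145 TPM in DMSO, 152, 164 and 182 in CAY10566, 244, 204 and 190 in stearate+DMSO and 186, 200 and 209 in stearate+CAY10566. With oleate it was at 173, 204 and 188 TPM in DMSO and 169, 174 and 166 in CAY10566. The stearate libraries lay above all controls and the oleate libraries overlapped both groups. RRM2 rose 1.29-fold with stearate (log2 0.37 ± 0.07, limma adjusted p = 0.000756), and the log2 difference with oleate was 0.17 (limma adjusted p = 0.058). Stearate was above oleate by 0.20 (interval 0.06 to 0.33, limma adjusted p = 0.0402), and by 0.15 without stearate+DMSO replicate 1, when the test no longer passed. RRM1 rose by less, 1.09-fold with stearate (limma adjusted p = 0.0158) and 1.11-fold with oleate (limma adjusted p = 0.00366).

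CLSPN encodes claspin, which couples the fork to the ATR-CHK1 checkpoint. It ran from 4.59 to 7.91 TPM in the controls (median 6.09), from 7.94 to 10.4 with stearate (median 9.37) and from 6.95 to 9.71 with oleate (median 8.66). The stearate libraries lay above all controls, narrowly so above CAY10566 replicate 3, the highest control. The rises were 1.45-fold with stearate (log2 0.54 ± 0.10, limma adjusted p = 0.00122) and 1.36-fold with oleate (0.44 ± 0.10, limma adjusted p = 0.00582), the latter not with the length and GC trend removed (0.23). TIMELESS, another fork protection factor, differed from control by -0.05 with stearate and 0.08 with oleate.

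Counted over the 44 genes, 11 had all 6 stearate libraries above all 6 controls and 1 (POLD2) had all below, against 4.7% and 3.09% of all genes tested. With oleate 7 lay wholly above the controls (MCM4, MCM10, GINS4, PCNA, RFC3, RFC5 and RRM1) and 0 below, against 3.49% and 0.573%. These orders are of TPM as deposited and were not counted after rescaling. On rescaling MCM10, PCNA, RFC3, RFC5 and RRM1 lost their limma calls with oleate, and MCM10 and RFC1 theirs with stearate. For 1 gene without overlap the exact two-sided permutation test over the 924 splits of 12 libraries gave p = 0.00216, the smallest p that it allows.

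The test of stearate against oleate, at the same 50 µM and 24 h, asks where the double bond went with another level. All 44 genes were compared, with p-values adjusted over the 13789 genes tested. Stearate was higher than oleate for ORC1, CDT1, RPA3 and RRM2 (6.85% of all genes were called higher) and lower for MCM2, MCM7, RFC3 and POLD2 (14.3% lower), and 0 of the 8 differed by more than the fold limit (1.6% of all genes higher and 4.78% lower). ORC1, CDT1, MCM2 and RPA3 were called in all 18 fits without 1 library, and the other 4 in 9 to 11 of them. With the replicate number as a block in the fit, MCM7, RFC3 and RRM2 lost their calls (limma adjusted p = 0.0539, 0.0587 and 0.0556). The members' median difference was -0.02 against -0.03 for all genes. After rescaling, 4 genes were higher and 1 (MCM2) lower, against 10.5% and 11.4% of all genes. With the length and GC trend removed 6 of the 8 calls remained, those of MCM7 (-0.05, limma adjusted p = 0.254) and POLD2 were lost, and ORC5 newly passed as lower with stearate than with oleate (-0.14, limma adjusted p = 0.019). In all 4 genes were then higher and 3 lower, against 10.7% and 12.1% of all genes. For most of the genes that rose with each fatty acid the interval of the difference covered 0, from -0.11 to 0.15 for POLD3, from -0.08 to 0.12 for FEN1 and from -0.11 to 0.31 for CLSPN, so that a difference of up to those sizes is not excluded.

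**Figure D4:**
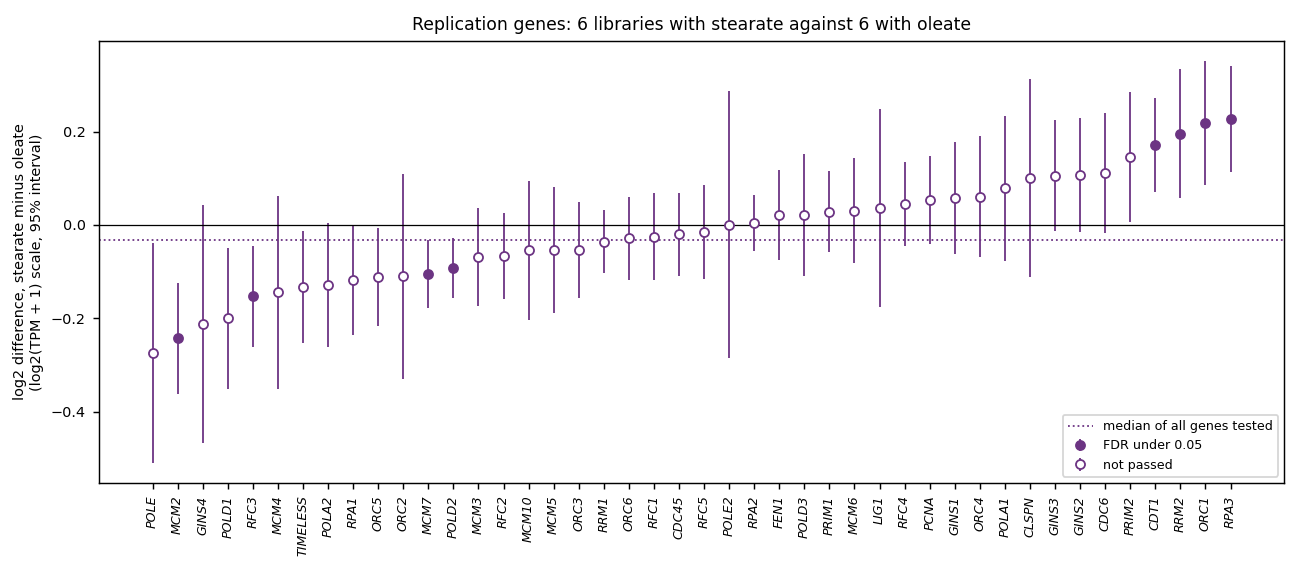
Log2 difference between the 6 stearate and the 6 oleate libraries for each of the 44 replication genes, ordered by size, with the 95% interval; filled points passed FDR under 0.05 and the dotted line is the median of all genes tested. The 4 filled points below 0 are MCM2, RFC3, MCM7 and POLD2 and the 4 above 0 are CDT1, RRM2, ORC1 and RPA3.

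CAY10566 itself did not move these genes past the threshold. Over 9 libraries with it and 9 without, fitted with the fatty acid as a covariate, 0 of the 44 genes were called by limma (0% of all genes tested), 4 had an unadjusted p under 0.05 (ORC1, PCNA, PRIM2 and FEN1, against 5.42% of all genes), and the median log2 difference was -0.02 against -0.01 for all genes. Among these PCNA had the narrowest interval away from 0, with a log2 difference of -0.10 (interval -0.16 to -0.03, limma adjusted p = 0.822). Within the libraries without fatty acid, with stearate and with oleate the inhibitor again gave 0 calls by limma among the 44 genes (0%, 0.0145% and 0% of all genes), with 2, 3 and 2 genes at an unadjusted p under 0.05 (10.1%, 5.52% and 4.72% of all genes).

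The responses to the fatty acids were counted separately with and without the inhibitor, in a model of 6 conditions. In DMSO stearate raised 12 genes and lowered 0 (10.5% and 3.53% of all genes tested) and oleate raised 17 and lowered CDT1 (21.1% and 3.1%). When 1 library was left out, the calls in DMSO ran from 6 to 13 with stearate and from 6 to 19 with oleate. Over all genes they ran from 703 to 2533 and from 1711 to 3783. In CAY10566 stearate raised 3, CDC6, PCNA and POLA1, and lowered 0 (2.18% and 2.57% of all genes), and oleate raised 0 and lowered 0 (0.058% and 0.0508%), although 15 of the 44 genes had an unadjusted p under 0.05 with oleate there (13.4% of all genes). The medians over the 44 genes in DMSO were 0.16 with stearate and 0.17 with oleate, and in CAY10566 they were 0.09 and 0.13. The difference between these responses was tested as an interaction, and 0 of the 44 genes passed by limma for either fatty acid (0.00725% of all genes higher for stearate, 0% for oleate). For stearate 6 genes had an unadjusted p under 0.05 (9.36% of all genes), and the smallest adjusted p was 0.478. Of these MCM3, MCM4 and MCM6 were nearer to control in CAY10566 (log2 0.07, 0.03 and 0.06) than in DMSO (0.27, 0.56 and 0.30), and POLA1 was further from it (0.52 against 0.21). MCM2 and RFC3 had differences of opposite sign, 0.13 each in DMSO and -0.15 and -0.13 in CAY10566, none of which passed. For oleate MCM2 and RRM2 had such a p (10.3% of all genes), with a smallest adjusted p of 0.465. Without CAY10566 replicate 3 the count in CAY10566 was 6 with stearate and 5 with oleate, while the count over all genes went from 300 higher and 355 lower to 676 in all with stearate, and from 8 higher and 7 lower to 693 in all with oleate. In DMSO, stearate against oleate gave ORC1, CDT1 and RPA3 higher and 0 lower (3.05% and 5.93% of all genes), and in CAY10566 it gave MCM2 and RFC3 lower and 0 higher (5.76% and 1.9%).

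Genes that work beside this machinery were counted from further lists, to be read against the 13.5% of all genes called higher with stearate and the 23% with oleate. Of 27 other replisome and licensing factors 6 rose with stearate (22.2%) and 8 with oleate (29.6%), with 0 falls. MCM9, DONSON and MCM8 rose most with stearate (1.32-fold, 1.20-fold and 1.19-fold), and TOPBP1, ATAD5 and WDHD1 with oleate (0.35, 0.32 and 0.26 on the log2 scale). Of 12 genes of nucleotide supply 3 rose with each fatty acid (25%), which for oleate is near the share of all genes. With stearate these were RRM2B, the p53-induced small subunit of ribonucleotide reductase (1.33-fold), SAMHD1, which breaks deoxyribonucleotides down (1.19-fold), and DUT (1.08-fold). With oleate they included CAD and PAICS, enzymes of pyrimidine and purine synthesis (1.20-fold and 1.13-fold). Of 10 genes of replication-coupled chromatin 4 rose with stearate (40%) and 6 with oleate (60%), led by HELLS (1.28-fold and 1.31-fold) and, with oleate, UHRF1 (1.32-fold).

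The list of E2F and G1-S control holds inhibitors as well as drivers of the cell cycle, so its counts have no single direction. Among its 22 tested genes 6 rose (27.3%, against 13.5% of all genes) and 1 fell with stearate (4.55%, against 5.97%), and 12 rose (54.5%, against 23%) and 0 fell with oleate. CCNE2, a cyclin E, rose most with stearate (1.60-fold, limma adjusted p = 0.00142) and was above oleate (1.32-fold, limma adjusted p = 0.034), while CDK6 rose with oleate (1.40-fold, limma adjusted p = 0.00443) and was lower with stearate than with oleate (0.701-fold, limma adjusted p = 0.00178). RBL1 (1.38-fold with stearate and 1.43-fold with oleate) and CDC25A (1.23-fold and 1.40-fold) rose with each. The checkpoint and mitosis lists stood near the shares of all genes. Of 15 genes of the ATR-CHK1 checkpoint 2 rose with stearate (13.3%), among them CDC25C (1.14-fold), and 3 with oleate (20%), ATR (1.24-fold), FANCI (1.22-fold) and BRCA1 (1.20-fold). Of 20 genes of G2 and mitosis 3 rose (15%) and 2 fell (10%) with stearate, with KIF11 higher (1.13-fold) and CDC20 lower (0.889-fold), and 5 rose (25%) and 1 fell (5%) with oleate, with BUB1B and NUSAP1 highest (1.20-fold and 1.19-fold). The median over the G2 and mitosis list with stearate was 0.05 on the log2 scale, against 0.13 over the 44 replication genes and 0.06 over all genes tested. On the rescaled values it was -0.006. With oleate it was 0.06, against 0.15 over the 44 genes and 0.09 over all genes, and on the rescaled values -0.05, against 0.05 over the 44 genes.

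On those values 7.76% of all genes were called higher and 10.3% lower with stearate, and 8.89% and 9.43% with oleate. Of the 20 genes of G2 and mitosis 0 were higher and 4 lower with stearate, and 2 higher and 4 lower with oleate. Of the 22 genes of E2F and G1-S control 5 were higher and 2 lower with stearate, and 5 higher and 1 lower with oleate. The 1 lower with oleate was CDKN1A, the CDK inhibitor p21, named here after its values were seen. On the TPM scale it rose 1.12-fold with stearate (limma adjusted p = 0.000223), and its log2 difference with oleate was -0.04 (limma adjusted p = 0.208). Of the 27 other replisome factors 4 were higher and 0 lower with stearate, and 4 higher and 1 lower with oleate. Of the 12 genes of nucleotide supply 2 were higher and 0 lower with stearate, and 1 higher and 1 lower with oleate. Of the 10 genes of chromatin 2 were higher with stearate and 5 with oleate, and of the 15 of the checkpoint 0 and 1, with 0 lower in these lists.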

How the data were processed

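RNA was measured by mRNA sequencing in 18 OVCAR5 libraries, 3 in each of 6 labelled conditions. Per the study's methods and the submitters' notes, stranded libraries were read as 100 bp pairs, trimmed (Trim Galore), aligned to GRCh38 with Ensembl release 99 (STAR 2.7.1a) and quantified by RSEM; the authors deposited the resulting TPM. TPM keeps no depth, so precision is given by the spread between libraries only. A single line naming no gene was left out. Symbols and positions came from GENCODE release 44 (56321 of 60483 identifiers, 93.1%), promoters from RefSeq. Per the study's methods, cells were plated in multiwell plates and every treatment was done 3 times. Their statistics section gives at least 3 independent experiments for cell culture work in general. As neither says whether the sequenced replicates were wells of 1 plating, p-values measure the spread between these samples, which may be technical.

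Tests used limma 3.58.1 in R 4.3.3 (lmFit, then eBayes allowing the variance to follow expression), run on log2(TPM + 1). Genes averaging under 1 TPM were left out, and p-values were Benjamini-Hochberg adjusted over all genes tested. The tool and thresholds are the study's (FDR under 0.05, and a fold limit of 0.32 on the log2 scale). On this scale the fold change of a low gene is understated. The procedure was tested on simulated data. Single genes were also compared by exact permutation of 12 libraries (60 tests). Alternatives were a pseudocount of 0.1, no filter, a filter at a mean of 5 TPM, constant variance, size factors, a replicate block, library weights, removal of a length and GC trend, CAY10566 as a covariate and leaving out each library.

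The 44 genes and the further lists were chosen with earlier results of these data known. Genes given with full values were PCNA, MCM2 to MCM7, the 5 largest rises and falls per comparison among genes that passed, and the gene with the smallest adjusted p in each role. In each further list, at most 3 genes per comparison with the largest change are named, and CDKN1A besides. Some genes counted in these lists are not reported here by name. Figures used matplotlib 3.10.9 in Python 3.11.15.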

Additional observations from a re-analysis of the deposited data

Results flagged for a closer look

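Within the 3 groups of 6 libraries, 132 sets of values (44 genes in each group) were searched for a library set apart from the others by more than Dixon's critical value for 6 samples. In 4 sets a value stood apart, where chance flags about 1 in 20 groups, or 6.6 of 132. ORC5 was at 27.62 TPM in stearate+DMSO replicate 3, with the other stearate libraries between 22.56 and 24.32. RFC1 was at 52.53 TPM in stearate+DMSO replicate 2, with the others between 47.32 and 49.07. POLD3 was at 14.9 TPM in stearate+DMSO replicate 1, with the others between 12.96 and 13.66. RFC3 was at 18.62 TPM in DMSO replicate 3, with the other controls between 20.26 and 21.19.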

How the results depend on the processing

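For stearate against control 20 of the 44 genes were called as reported, 13 with no filter on TPM, 11 after rescaling by size factors, 13 after removal of the length and GC trend and 4 with the fold limit. For oleate against control 21 were called as reported, 11 with size factors, 10 with the length and GC trend removed and 3 with the fold limit. For stearate against oleate 8 were called as reported, 4 with no filter, 5 with no trend, 5 with size factors, 5 with the replicate block and 0 with the fold limit. In DMSO, stearate gave 12 as reported and 20 with library weights, and oleate 18 as reported, 11 with no filter, 8 with size factors and 9 with the length and GC trend removed. In CAY10566, stearate gave 3 as reported, 6 with library weights and 6 with the length and GC trend removed. The cause of these differences was not tested. Under the other alternatives the counts stayed within 1.5 times the reported ones, and the 34 calls of the genes given in full kept their direction in every alternative that gave them a value. Differences that did not pass changed sign on rescaling for some genes, among them MCM7 with stearate and POLD2, RFC4, RPA2 and TIMELESS with oleate.

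Leaving out 1 library gave 12 to 21 genes for stearate against control (12 without stearate+DMSO replicate 1, 13 without DMSO replicate 2 or 3), 19 to 27 for oleate against control (27 without CAY10566 replicate 3) and 4 to 9 for stearate against oleate (4 without oleate+CAY10566 replicate 2, 5 without replicate 2 of stearate+DMSO or oleate+DMSO, replicate 1 or 2 of stearate+CAY10566 or oleate+CAY10566 replicate 3). In DMSO it gave 6 to 13 for stearate (6 without DMSO replicate 2 or stearate+DMSO replicate 1), 6 to 19 for oleate (6 without DMSO replicate 3, 7 without oleate+DMSO replicate 2, 9 without DMSO replicate 2) and 0 to 4 for stearate against oleate (0 without stearate+DMSO replicate 2 or 3, 1 without stearate+DMSO replicate 1 or oleate+DMSO replicate 2 or 3). In CAY10566 it gave 2 to 6 for stearate, 0 to 5 for oleate (6 and 5 without CAY10566 replicate 3) and 0 to 3 for stearate against oleate (0 without stearate+CAY10566 replicate 1 or oleate+CAY10566 replicate 2, 1 without stearate+CAY10566 replicate 2 or oleate+CAY10566 replicate 1). The counts over all genes moved too in these fits, from 2004 to 3692 for stearate against control, 2446 to 4700 for oleate against control and 2307 to 3444 for stearate against oleate, from 703 to 2533, 1711 to 3783 and 620 to 1639 for these in DMSO, and from 367 to 676, 7 to 693 and 573 to 1375 in CAY10566, each highest without CAY10566 replicate 3. Counts of replication genes for CAY10566 and for the interactions were 0 in every such fit. Where a condition was left with fewer libraries, its spread was taken as that of the others.

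Replicate numbers were not treated as pairs. Deviations from the condition means correlated by -0.18 to 0.103 between same-numbered libraries (45 pairs, median 0.012). Between differently numbered libraries this was -0.124 to 0.171 (90 pairs, median -0.0109). Taken over all genes, such values cannot exclude a plating shared by part of the libraries. With the replicate block 18 genes were called for stearate against control and 19 for oleate against control, and 5 for stearate against oleate. As TPM keeps no depth, how much of the spread of low genes such as POLA1 is counting error is unknown.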
